A study of Solanum lycopersicum with 24 samples.

Results

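*TCP3*, *TCP12* and *TCP17* are 3 of the 21 tomato genes whose symbol starts with TCP in the probe annotation of the array used here. They were chosen by their differences between the *res* mutant and WT, as TCP genes lowered in *res*, so the differences between *res* and WT given for them below are the values behind that choice and are described without a test. Each of the 3 genes has 1 probe set, among 24 TCP probe sets and 67795 probe sets on the array. Of the other 18 TCP genes, *TCP10*, *TCP11* and *TCP24* have several probe sets, and the one with the highest mean over all arrays was used.

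The study asked how salt changes the transcriptome of the tomato *res* mutant, whose growth is impaired without salt and recovers in part under it. Transcripts were measured in the roots and in leaflets of the first fully expanded leaf of *res* and of its background cultivar Moneymaker (WT). The 8 groups of 3 arrays were *res* leaves under salt, WT leaves under salt, *res* leaves in control, WT leaves in control, and the same 4 combinations for roots. Plants were 6 weeks old when salt began and grew in hydroponics in all groups. Salt stress was 5 days of NaCl at 200 mM, with a lower dose on the first day, and each array carried RNA pooled from 3 plants. Control tissue was taken before salt was given, so a salt effect and 5 days of growth cannot be told apart in any difference between salt and control. All *res* plants carry 1 mutant line, and in whole roots or leaflets fewer cells of a type and less RNA per cell cannot be told apart.

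TCP proteins are plant transcription factors named after TEOSINTE BRANCHED, CYCLOIDEA and the PCF proteins, and they bind DNA through a basic helix-loop-helix domain of their own kind. Class I members are mostly tied to growth and cell proliferation. Class II members of the CIN type end proliferation at the margins of young leaves and so set leaf shape, while those of the CYC/TB type restrain the outgrowth of side branches. In tomato, *TCP3*, *TCP10* and *TCP24* are CIN-type genes whose transcripts are cut by the microRNA miR319, as is that of *LANCEOLATE*, the gene that sets how compound the tomato leaf is and that was not analysed here. By sequence, *TCP12* and *TCP17* are counted among class I. Tomato TCP numbers do not follow those of Arabidopsis.

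The values are log2 RMA intensities, a scale on which 1 unit is a 2-fold difference. Levels of different probe sets are not comparable on it, so every difference below is between groups for 1 gene. A gene's place among all probe sets of an array and the summed marker levels join probe sets and are only rough. The array medians lay between 1.84 and 2.17. Of 13 listed leaf markers (photosynthesis genes) 6 were measured, and all 6 were higher on every leaf array than on any root array. Of 10 listed root markers 5 were measured, and *fer* and *NRAMP1* of iron uptake were higher on every root array, *FRO1* and the phosphate transporter *PT2* overlapped between organs, and the ammonium transporter *AMT1-3* was higher on every leaf array. One array of WT control leaves (replicate 1) departed more than 2-fold from the mean of its group's other arrays at 2494 probe sets and one of WT salt roots (replicate 3) at 1399, against 58 to 239 for the arrays of the 6 other groups. The other arrays of these 2 groups departed at 782 and 1054 probe sets in WT control leaves and at 518 and 368 in WT salt roots. Values that turned their sign or moved by over 1.5 times without replicate 1 or replicate 3 of these groups are also given without it.

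In control roots all 3 genes were lower in *res*. For *TCP17* the *res* arrays had 1.93, 1.95 and 1.86 and the WT arrays 4.15, 4.16 and 4.39. *TCP3* had 2.44, 2.01 and 2.34 in *res* and 4.56, 4.66 and 4.43 in WT. *TCP12* had 5.64, 5.57 and 5.54 in *res* and 7.36, 7.50 and 7.34 in WT. No *res* array reached a WT array for any of them. For *TCP17* the *res* arrays lay at about the median of all probe sets on their arrays. For *TCP3* they lay not far above it, at percentiles 62.4, 50.8 and 60.5. The share of all probe sets without overlap between the genotypes was not counted, here or in the comparisons below. The difference of *res* minus WT was −2.32 ± 0.15 for *TCP17* (SE, 4.99-fold), −2.29 ± 0.22 for *TCP3* (4.89-fold) and −1.82 ± 0.16 for *TCP12* (3.52-fold). These were the lowest 3 values of the 21 TCP genes. The 3 genes were chosen as lowered in *res*, so this rank is part of the choice and not a separate result. Just outside the 3 stood *TCP24*, a miR319 target like *TCP3*, at −1.50 ± 0.12 (2.83-fold).

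**Figure D1:**
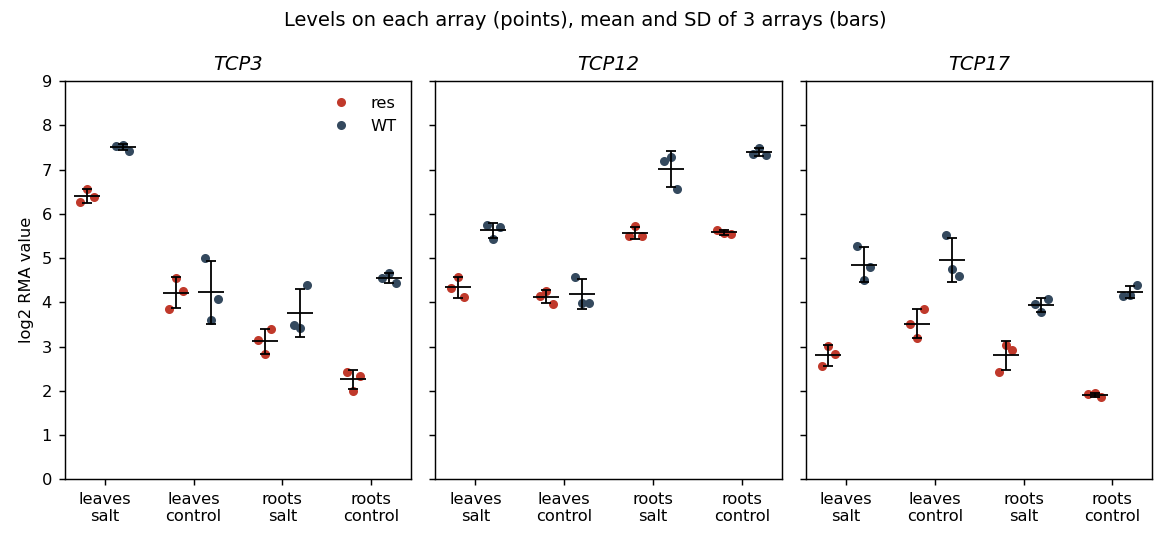
Log2 RMA value of *TCP3*, *TCP12* and *TCP17* on every array. Points are arrays, horizontal bars are means and vertical bars are SD of 3 arrays, with *res* in red left of WT in dark blue. In control roots the *res* arrays of *TCP17* lie between 1.86 and 1.95 and the WT arrays between 4.15 and 4.39. *TCP3* reaches its highest values in salt-stressed leaves.

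Of the other 18 TCP genes 3 were called lower in *res* control roots and none higher, where called means at least 2-fold apart at a p under 0.05 after adjustment over the whole array. Among all probe sets 5.43% were called in this comparison in either direction and 2.47% were called lower. *TCP24* had 4.51, 4.28 and 4.62 in *res* and 6.18, 5.77 and 5.97 in WT (limma, adjusted p = 9.49e-07). Its second probe set was at −0.96 (adjusted p = 0.000294), under 2-fold. *TCP20* was lower at −1.07 ± 0.15 (adjusted p = 0.00021) and *TCP16* at −1.10 ± 0.26 (adjusted p = 0.0104). Over the 18 genes the differences ran from −1.50 in *TCP24* to 0.32 in *TCP18*, with a median of −0.12 beside −0.01 over all probe sets. Without replicate 2 of *res* control roots, 1 of the 18 was called.

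The root markers moved with genotype in the same comparison. Of the 5 measured root markers, *fer*, *FRO1*, *NRAMP1* and *PT2* were called lower in *res* control roots, and the log2 of their summed level with *AMT1-3* was 7.65 to 7.68 on the *res* arrays and 10.13 to 10.31 on the WT arrays. The log2 of the summed level of the 6 leaf markers was 6.82 to 6.87 on the *res* and 6.99 to 7.25 on the WT arrays. The part of these markers in the TCP differences was not tested.

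In salt-stressed roots all 3 genes were again lower in *res*, by smaller values than in control. *TCP12* had 5.50, 5.73 and 5.49 in *res*, against 7.19, 7.29 and 6.55 in WT. *TCP17* had 2.43, 3.05 and 2.93 in *res* and 3.96, 3.78 and 4.08 in WT. *TCP3* had 3.15, 2.83 and 3.39 in *res* and 3.49, 3.42 and 4.38 in WT. The *res* arrays stayed below every WT array for each gene, by a narrow gap for *TCP3*, where the highest *res* array had 3.39 and the lowest WT array 3.42. The differences were −1.44 ± 0.16 for *TCP12* (2.71-fold), −1.14 ± 0.15 for *TCP17* (2.20-fold) and −0.64 ± 0.22 for *TCP3* (1.56-fold). The *TCP3* difference came to −0.33 without WT salt root replicate 3. None of the other 18 TCP genes was called here (2.17% of all probe sets were), and 4 of the 18 had an unadjusted p under 0.05 in limma. The summed root markers did not follow the control pattern in salt, at 10.06 to 10.17 in *res* and 9.09 to 9.19 in WT on the log2 scale. The summed leaf markers had 6.86 to 7.03 in *res* salt-stressed roots and a wider 5.45 to 7.89 in WT salt-stressed roots.

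The change with salt in roots ran in opposite directions in the genotypes for *TCP3* and *TCP17*. Salt minus control was 0.86 ± 0.22 in *res* and −0.78 ± 0.22 in WT for *TCP3* (−1.09 in WT without WT salt root replicate 3), and 0.88 ± 0.15 in *res* and −0.29 ± 0.15 in WT for *TCP17*. Every *res* salt array of both genes lay above every *res* control array, and the share of all probe sets that did so was not counted. For *TCP12* the change was −0.01 ± 0.16 in *res* and −0.38 ± 0.16 in WT, and that of WT was −0.16 without WT salt root replicate 3. The difference between the genotypes' salt changes was 1.65 ± 0.32 for *TCP3*, 1.18 ± 0.21 for *TCP17* and 0.38 ± 0.22 for *TCP12*, which was 0.15 without the same array. These values contain the control difference by which the genes were chosen and carry no test.

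Salt minus control averaged over both genotypes was tested. In the balanced design the noise of this average is independent of that of the difference between genotypes. It still holds the *res* control arrays, so a real lowering of a gene there moves it, and it is not wholly free of the choice. In roots none of the 3 genes passed. *TCP17* had 0.30 ± 0.10 (limma, adjusted p = 0.075, from 0.00714 to 0.168 with single arrays left out and from 0.045 to 0.245 under the other settings), *TCP12* −0.20 ± 0.11 (adjusted p = 0.277) and *TCP3* 0.04 ± 0.16 (adjusted p = 0.9). Without WT salt root replicate 3 the average was −0.08 for *TCP12* (adjusted p = 0.502) and −0.12 for *TCP3* (adjusted p = 0.54). None of the other 18 genes was called, 6 of them had an unadjusted p under 0.05, and 1.81% of all probe sets were called. For *TCP3* and *TCP17* the average joins opposite changes in the genotypes.

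In control leaves the 3 genes parted. *TCP17* was lower in *res*, with 3.51, 3.19 and 3.85 against 5.53, 4.74 and 4.61 in WT. *TCP3* had 3.86, 4.54 and 4.27 in *res* and 5.00, 3.60 and 4.08 in WT. *TCP12* had 4.15, 4.26 and 3.96 in *res* and 4.58, 3.99 and 3.98 in WT. The genotypes overlapped for *TCP3* and *TCP12* and did not for *TCP17*. The differences were −1.44 ± 0.26 for *TCP17* (2.71-fold), −0.06 ± 0.17 for *TCP12* and −0.01 ± 0.28 for *TCP3*. Each SE rests on a spread shared by all leaf groups. For *TCP3* the SD was 0.71 in WT and 0.34 in *res* control leaves, but 0.07 in WT and 0.16 in *res* salt-stressed leaves. Without WT control leaf replicate 1 the differences were −1.16 for *TCP17*, 0.14 for *TCP12* and 0.38 for *TCP3*. Of the other 18 TCP genes 1 was called, *TCP16*, which was higher in *res* leaves by 1.22 (adjusted p = 0.000488), and 3.92% of all probe sets were called. Without WT control leaf replicate 3 none of the 18 was called, and without WT control leaf replicate 1 or *res* control leaf replicate 2 the number was 2.

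In salt-stressed leaves all 3 genes were again lower in *res*. *TCP17* had 2.55, 3.02 and 2.83 in *res* and 5.27, 4.50 and 4.79 in WT. *TCP12* had 4.31, 4.57 and 4.12 in *res* and 5.75, 5.43 and 5.70 in WT. *TCP3* had 6.26, 6.57 and 6.38 in *res* and 7.53, 7.57 and 7.43 in WT. No array of *res* reached one of WT for any of the 3. The differences were −2.05 ± 0.26 for *TCP17* (4.15-fold), −1.29 ± 0.17 for *TCP12* (2.44-fold) and −1.11 ± 0.28 for *TCP3* (2.15-fold), beside a median of −0.11 over all probe sets. The log2 of the summed leaf markers was 12.51 to 12.53 in *res* and 11.97 to 12.02 in WT under salt, and 12.65 to 12.68 in *res* and 12.29 to 12.45 in WT in control, and their part in these differences was not tested. *TCP17* was lower in *res* in all 4 comparisons, while *TCP3* and *TCP12* were lower in 3 and overlapped with WT in control leaves.

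Among the other 18 TCP genes *TCP10* was called higher in *res* salt-stressed leaves, at 1.07 (adjusted p = 0.000941), and *TCP13* lower, at −1.03 (adjusted p = 0.00125). Of all probe sets 4.37% were called. *TCP10* is a CIN-type gene and miR319 target like *TCP3*, and the pair stood on opposite sides of 0 in this comparison. *TCP24*, the other target, was lower in *res* at −0.92 (adjusted p = 3.91e-05), under 2-fold, and its second probe set was called lower at −1.46 (adjusted p = 1.97e-05). The second probe set of *TCP10* was at 0.66 (adjusted p = 0.00328), under 2-fold. Leaving out single arrays gave 1 or 2 calls among the 18.

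**Figure D2:**
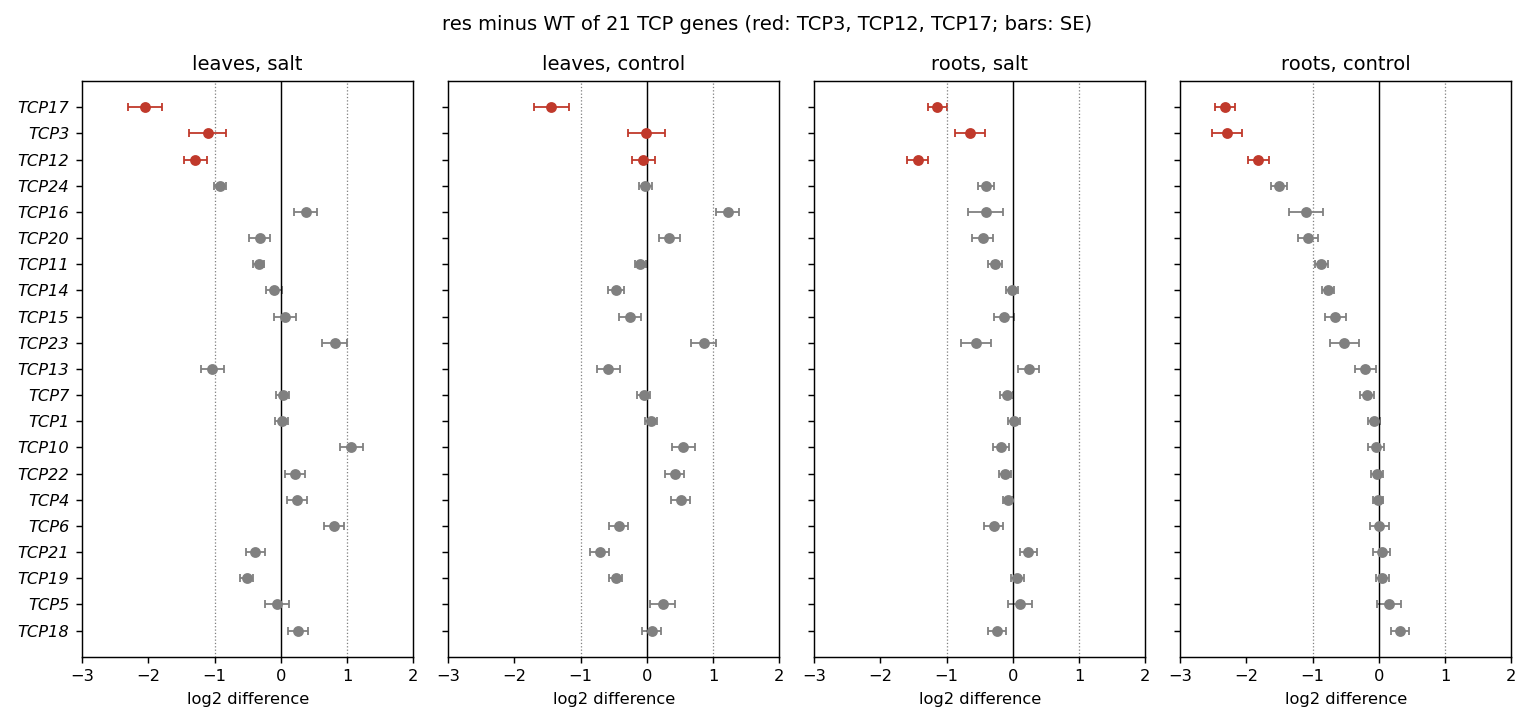
Difference of *res* minus WT in log2 units for each of the 21 TCP genes (rows), in leaves and roots under salt and in control (panels). Points are estimates, bars are SE, red marks *TCP3*, *TCP12* and *TCP17*, and dotted lines stand at 2-fold. The red points, of genes chosen as lowered in *res*, are the lowest 3 in control roots. In control leaves those of *TCP3* and *TCP12* lie at −0.01 and −0.06.

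*TCP3* was higher in salt-stressed than in control leaves of both genotypes. Its salt arrays, with 6.26 to 6.57 in *res* and 7.43 to 7.57 in WT, lay above every control array of either genotype, which reached 5.00 at most. The change was 2.18 ± 0.28 in *res* (4.54-fold) and 3.28 ± 0.28 in WT (9.72-fold), and its mean over the genotypes was 2.73 ± 0.20 (6.64-fold, limma, adjusted p = 5.63e-07). *TCP12* rose on the same average by 0.83 ± 0.12 (1.77-fold, adjusted p = 0.000272), which is under 2-fold and joins 0.21 ± 0.17 in *res* with 1.44 ± 0.17 in WT. *TCP17* had −0.72 ± 0.26 in *res*, −0.11 ± 0.26 in WT and −0.41 ± 0.18 on average (adjusted p = 0.138, from 0.026 to 0.237 under the other settings). Without WT control leaf replicate 1 its WT value was 0.18 and its average −0.27 (adjusted p = 0.231). The difference between the genotypes' salt changes was −1.23 ± 0.25 for *TCP12*, −1.10 ± 0.39 for *TCP3* and −0.61 ± 0.37 for *TCP17*, without a test, and WT control leaf replicate 1 moved that of *TCP3* to −1.49 when left out.

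**Figure D3:**
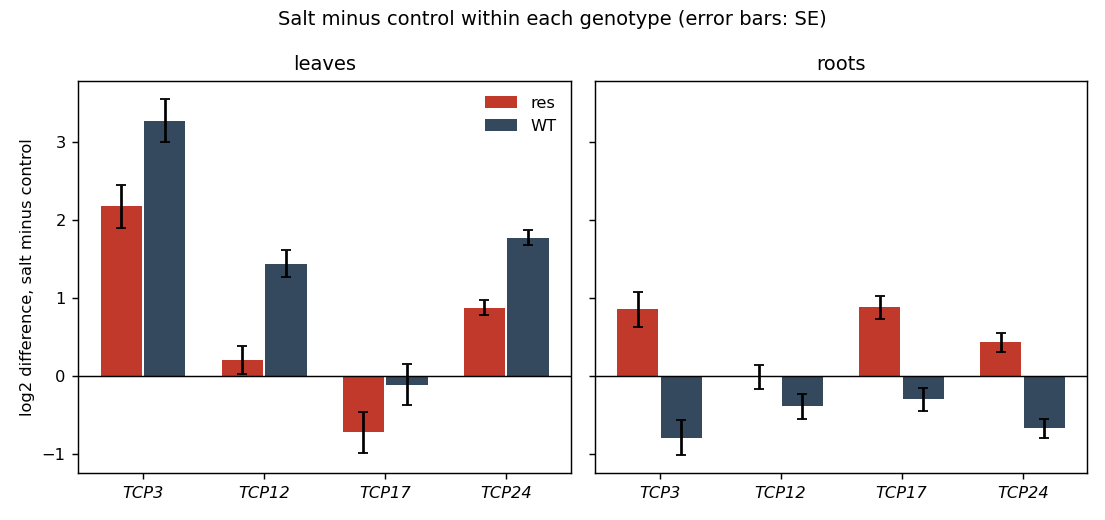
Salt minus control in log2 units for *TCP3*, *TCP12*, *TCP17* and *TCP24* in leaves (left) and roots (right), with *res* in red beside WT in dark blue. Bars start at 0 and error bars are SE. In leaves *TCP3* has 2.18 in *res* and 3.28 in WT, and in roots 0.86 in *res* and −0.78 in WT.

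Of the other 18 TCP genes, 3 were called on the same average in leaves, where 4.15% of all probe sets were. *TCP18* was higher under salt by 1.56 (adjusted p = 2.48e-07), *TCP24* by 1.33 (adjusted p = 3.2e-08), and *TCP13* was lower at −1.29 (adjusted p = 6.35e-06). Within genotypes, salt-stressed *res* leaves had *TCP18* higher and *TCP13* lower among the 18 (3.40% of all probe sets called). In WT leaves *TCP18*, *TCP20* and *TCP24* were higher and *TCP6* and *TCP13* lower (6.98%). In roots none of the 18 was called in *res* (3.11%) or in WT (2.72%), with 5 of them in *res* and 7 in WT at an unadjusted p under 0.05.

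*TCP24* is given array by array because it stood next to the 3 genes in control roots. In salt-stressed leaves it had 6.81, 6.74 and 6.60 in *res* and 7.72, 7.60 and 7.58 in WT. In control leaves it had 5.72, 5.90 and 5.87 in *res* and 5.77, 5.91 and 5.88 in WT, so the genotypes overlapped there and were apart under salt. In salt-stressed roots it had 4.90, 4.95 and 4.87 in *res* and 5.43, 5.26 and 5.25 in WT. Its salt change in roots was 0.44 ± 0.12 in *res* and −0.67 ± 0.12 in WT, and the difference of 1.10 ± 0.17 was called (adjusted p = 0.000942), the only such call among the 18, where 3.69% of all probe sets were called. It was not called without WT control root replicate 1, nor in the second probe set of *TCP24* (0.70, adjusted p = 0.0618). In leaves the corresponding call among the 18 was *TCP6* at 1.23 (adjusted p = 0.00311), with 4.12% of all probe sets called.

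Organs were compared on the average of the genotypes. In the balanced design its noise is independent of that of the difference between genotypes. The average still holds the *res* arrays by which the genes were chosen, so it is not wholly free of that choice. *TCP12* was higher in roots. Its control leaf arrays lay between 3.96 and 4.58 and its control root arrays between 5.54 and 7.50, and leaf minus root was −2.34 ± 0.12 in control (5.05-fold, adjusted p = 1.99e-13) and −1.31 ± 0.12 under salt (2.48-fold, adjusted p = 5.8e-09). None of the other 18 TCP genes was called lower in leaves than in roots in either treatment, where limma gave an unadjusted p under 0.05 to 1 lower gene in control and 0 under salt. In control 8 of them were called higher in leaves (*TCP4*, *TCP5*, *TCP6*, *TCP10*, *TCP11*, *TCP15*, *TCP16* and *TCP23*), and 16.1% of all probe sets were called, 10.6% of all being lower in leaves. Under salt 6 were called higher in leaves (*TCP5*, *TCP6*, *TCP10*, *TCP16*, *TCP23* and *TCP24*), with 13.7% of all probe sets called and 8.71% lower in leaves.

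*TCP3* was higher in leaves on the average of the genotypes. Leaf minus root was 3.51 ± 0.19 under salt (11.4-fold, adjusted p = 4.68e-13) and 0.82 ± 0.19 in control (1.77-fold, adjusted p = 0.00114). Within genotypes the control value was 1.96 in *res* and −0.32 in WT, and with single arrays left out the WT value ran from −0.71 (without WT control leaf replicate 1) to −0.01 (without WT control leaf replicate 2). *TCP17* was higher in leaves by 1.17 ± 0.16 in control (2.24-fold, adjusted p = 1.6e-06) and by 0.46 ± 0.16 under salt (1.37-fold, adjusted p = 0.025, up to 0.086 with single arrays left out). Within genotypes it was 1.60 ± 0.22 in *res* and 0.73 ± 0.22 in WT in control (0.44 in WT without WT control leaf replicate 1), and 0.00 ± 0.22 in *res* and 0.92 ± 0.22 in WT under salt.

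The salt change itself was compared between organs, on the same average and with the same limit. Leaf minus root in the salt change, averaged over the genotypes, was 2.69 ± 0.27 for *TCP3* (adjusted p = 1.36e-07), 1.02 ± 0.17 for *TCP12* (adjusted p = 0.000126) and −0.71 ± 0.22 for *TCP17* (adjusted p = 0.0287). *TCP24* was the only one of the other 18 called, at 1.44 (adjusted p = 1.56e-09), with 5.66% of all probe sets called. The value of *TCP12* was 0.91, under 2-fold, without WT salt root replicate 3. For *TCP17* the adjusted p ran from 0.0101 to 0.0617 when single arrays were left out and was 0.0578 in the ordinary linear model, the highest of the other settings.

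**Figure D4:**
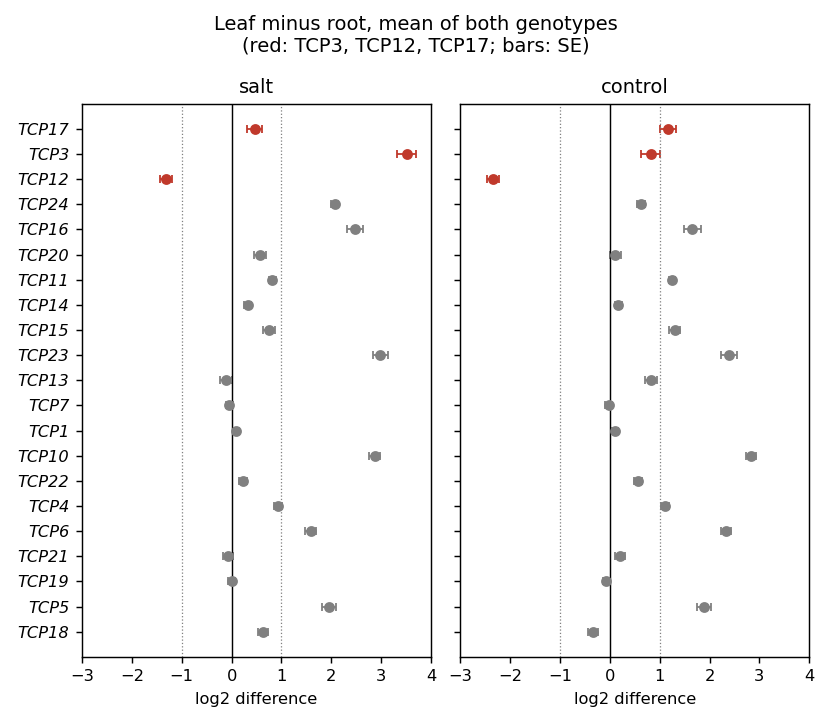
Leaf minus root in log2 units, averaged over *res* and WT, for the 21 TCP genes (rows) under salt (left) and in control (right). Points are estimates, bars are SE, red marks *TCP3*, *TCP12* and *TCP17*, and dotted lines stand at 2-fold. *TCP12* is left of −1 in both panels and *TCP3* moves to 3.51 under salt.

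Over the 8 groups each gene had its own order of levels. *TCP3* was highest in WT salt-stressed leaves (7.51 ± 0.07, SD, n = 3), followed by *res* salt-stressed leaves (6.40 ± 0.16), and lowest in *res* control roots (2.26 ± 0.22). Between them WT control roots (4.55 ± 0.12), WT control leaves (4.23 ± 0.71), *res* control leaves (4.22 ± 0.34) and WT salt-stressed roots (3.76 ± 0.54) each overlapped with the next, and *res* salt-stressed roots (3.12 ± 0.28) came below them.

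*TCP12* was highest in WT control roots (7.40 ± 0.09), then in WT salt-stressed roots (7.01 ± 0.40). WT salt-stressed leaves (5.63 ± 0.17), *res* control roots (5.58 ± 0.05) and *res* salt-stressed roots (5.57 ± 0.14) overlapped in turn. So did the lowest groups, *res* salt-stressed leaves (4.34 ± 0.23), WT control leaves (4.18 ± 0.34) and *res* control leaves (4.13 ± 0.15).

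For *TCP17* all 4 WT groups stood above all 4 *res* groups by their means, from WT control leaves (4.96 ± 0.50), which overlapped with WT salt-stressed leaves (4.85 ± 0.39), through WT control roots (4.23 ± 0.14) to WT salt-stressed roots (3.94 ± 0.15). The last overlapped with *res* control leaves (3.52 ± 0.33). *res* salt-stressed leaves (2.80 ± 0.24) and *res* salt-stressed roots (2.80 ± 0.33) overlapped, and *res* control roots (1.91 ± 0.05) lay below every other group.

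Genes whose group means followed those of the 3 genes most closely were sought among 709 named genes with a range of at least 1 log2 unit, over 8 group means that share the same arrays and normalization. For *TCP3* these were *bHLH1* (Pearson's r = 0.92), *CCD1-1* (0.91), *MLO1* (0.90), *TSW12* (0.89) and *ARF4* (0.88). For *TCP12* they were *pglcat8* (0.97), *GAL83*, *EOL1* and *TCTP* (0.94 each) and *ureD* (0.93). For *TCP17* they were *SODCP.2* (0.90), *LIN8* (0.89), *GMP* (0.88), *BR1* (0.87) and *GAD3* (0.87).

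Genes of jasmonate synthesis, of leaf and shoot meristems and of the cell cycle were counted from lists. A link of the single listed genes to TCP factors was not tested. In Arabidopsis a CIN-type TCP acts on a lipoxygenase gene of jasmonate synthesis, and neither such an action nor its direction was tested in these data. Of 8 measured jasmonate synthesis genes 4 were called higher in *res* control roots (*aoc*, *aos*, *Fad7* and *loxD*), with a median of 1.10 beside −0.01 over all probe sets, of which 5.43% were called. In salt-stressed roots 1 was higher (*aos*), where 2.17% of all probe sets were called. In leaves 1 was lower in control (*aos*), with 3.92% of all probe sets called, and 1 lower under salt (*loxC*), with 4.37% called. Of 8 measured leaf and shoot meristem regulators *sp* (*SELF-PRUNING*, which governs shoot determinacy) was called higher in *res* roots, by 1.96 in control (adjusted p = 5.59e-07) and 2.76 under salt (adjusted p = 1.43e-07), where 5.43% and 2.17% of all probe sets were called in that order, and none was called in leaves, where 0 in control and 1 under salt had an unadjusted p under 0.05. Of 8 measured cell cycle genes none was called in roots or control leaves, with 2 in control roots, 3 in salt-stressed roots and 3 in control leaves at an unadjusted p under 0.05, and *cdkB1*, *cdkB2* and *cycD3* were called lower in *res* salt-stressed leaves, at −1.28, −2.84 and −1.29 in that order, with a list median of −0.75 beside −0.11 over all probe sets, of which 4.37% were called.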

How the data were processed

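Transcripts were measured with 24 Affymetrix Tomato Gene 1.1 ST arrays, 3 for each of the 8 groups of genotype, organ and treatment. The authors processed the scans by RMA (background correction, quantile normalization over the arrays and 1 summary value per probe set), and deposited 1 log2 intensity per array for each of 67795 probe sets, which was used as given. The version of the RMA software is not given in the sources used here. Array number, not read depth, limits the precision.

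Gene names come from the platform annotation, in which 23194 probe sets have 1 symbol, 170 several and 44431 none. Of the 21 TCP symbols 19 are current RefSeq symbols and *TCP7* and *TCP18* are not, and gene descriptions were not used. The members, the gene lists and the tests were chosen with earlier results of these data known. The genes named are the 3 members, TCP genes called or at the end of a range, called members of the lists, and the 5 genes most like each member. The values of *TCP24* by array were chosen after they were seen.

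Differences were fitted with limma 3.58.1 in R 4.3.3, with the 12 arrays of an organ together and all 24 for leaf minus root. Each SE rests on a spread shared by all groups in the fit, also where their SD differ. Adjusted p-values are Benjamini-Hochberg over all probe sets. The difference between organs in the salt change was added after the other comparisons. Replicates are pools of 3 plants. On data simulated for salt minus control on the average of the genotypes, 0 of 50 probe sets changed 1.5-fold were called in either organ. Of 50 changed 2.5-fold, 50 in roots and 48 in leaves were called. A call needs at least 2-fold, so the 1.5-fold result largely follows from that limit. The simulated spread was the same in every group, while WT control leaf arrays departed more than those of most groups. The 48 of 50 need not hold for comparisons with that group. The alternatives tried were a joint fit of the 24 arrays, a fit to just the groups in a comparison, a linear model with unmoderated variances, a variance trend with robust settings, quantile normalization by organ, removal of the dimmest probe sets (1 in 3), 1 probe set per gene, a block for replicate number and removal of single arrays. Tables were handled in Python 3.11.15.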

Additional observations from a re-analysis of the deposited data

Results flagged for a closer look

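The salt change averaged over the genotypes differed between leaf and root at an adjusted p under 0.05 in 10 of the 21 TCP genes, by a test of the difference itself (limma, leaf minus root). At least 2-fold were *TCP3* (2.69), *TCP24* (1.44) and *TCP12* (1.02). The other 7 were under 2-fold and had 0.98 for *TCP18*, 0.82 for *TCP16*, −0.43 for *TCP11*, −0.56 for *TCP15*, −0.71 for *TCP17*, −0.74 for *TCP6* and −0.93 for *TCP13*. Of these, *TCP17* had an adjusted p of 0.0287, from 0.0101 to 0.0617 with single arrays left out and from 0.0137 to 0.0578 under the other settings. With the 2-fold limit 5.66% of all probe sets were called here. The share of all probe sets at an adjusted p under 0.05 alone was not counted, so the 10 genes have no such background.

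Among the 18 other TCP genes the salt change differed between *res* and WT by the same kind of test in 3 genes in roots, *TCP24* (1.10), *TCP14* (0.77) and *TCP11* (0.60), and in 2 in leaves, *TCP6* (1.23) and *TCP24* (−0.89), and only *TCP24* in roots and *TCP6* reached 2-fold. In roots every salt array of *res* lay above its control mean and every salt array of WT below its own for *TCP3*, *TCP17*, *TCP24* and *TCP14*. The share of all probe sets with this layout, or at an adjusted p under 0.05 alone, was not counted. For *TCP3* (1.65) and *TCP17* (1.18) the difference between the salt changes was not tested, since the genes were chosen by a comparison it contains. *TCP14* had the same layout in leaves, where the changes differed by 0.36 (adjusted p = 0.289).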

How the results depend on the processing

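Over 19 comparisons, the 3 genes gave 903 values under other settings, of which 504 came from leaving out 1 array. Among the others 5 moved by more than the spread between arrays, all with quantile normalization within each organ. The remaining settings keep the group means, so in this balanced design they could change the SE and p but not these values. *TCP17* then had −2.44 for *res* minus WT in control roots. In salt-stressed leaves *res* minus WT was −0.95 for *TCP3*, −1.05 for *TCP12* and −1.69 for *TCP17*, and the salt change of *TCP12* in WT leaves was 1.16. The cause was not tested. The *TCP3* value in salt-stressed leaves was under 2-fold there. All 133 counts of the other TCP genes under those settings were within 1.5 times of the count given.

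With single arrays left out, the average salt change of *TCP3* in roots ran from −0.12 (without WT salt root replicate 3) to 0.13 and was also below 0 without *res* control root replicate 2 or *res* salt root replicate 3. The difference between the genotypes' salt changes of *TCP12* in roots ran from 0.15 (without WT salt root replicate 3) to 0.52. Leaf minus root in the salt change of *TCP12* ran from 0.91 to 1.12, and 7 of 24 arrays brought it under 2-fold when left out. The number of other TCP genes called ran from 1 to 3 for *res* minus WT in control roots, 0 to 2 in control leaves and 1 to 2 in salt-stressed leaves, from 0 to 1 for the interaction in roots and from 1 to 3 for leaf minus root in the salt change.

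Within each organ replicate numbers did not pair the arrays. Same-numbered arrays correlated at −0.08 to 0.06 in roots and −0.10 to 0.10 in leaves in their deviations from the group means. No such correlation was computed between leaf and root arrays, and the fit given for leaf minus root treats all 24 arrays as independent. A block for replicate number cannot move the differences in this balanced design. With it the average salt change of *TCP3* in leaves (2.73) had an adjusted p of 7.02e-06 in limma, and no tested call on the 3 genes changed. The intensities carry no detection calls. How far the levels of *TCP17*, near the array median in *res* control roots, and of *TCP3*, not far above it there, stood above background is unknown. Normalization within an organ was not run for leaf minus root, and fitting just the groups compared is the same fit as given for the averaged salt changes.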
